A study of Oryza sativa with 23 samples.

Results

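The comparison described here set the L2 leaf against the whole root of unstressed seedlings of the rice variety Hacha, with 3 leaf libraries and 3 root libraries chosen by their labels from the 23 libraries of the series. The study treated Hacha and Lachit, both described by the submitters as lowland varieties, with excess iron and measured RNA in both organs. Hacha comes from a cross of CRM 53 with IR 64, and Lachit from a cross of CRM 13-3241 with Kalinga 2. All plants grew in nutrient solution in a growth chamber and were 11 days old at harvest. Control plants had 50 µM iron as Fe sodium EDTA at pH 6.2. Excess-iron plants had 15 mM iron sulfate added to the same 50 µM, at pH 5.2, for the last 2 days. Iron form, dose and pH thus changed together. Beside the control Hacha leaves and roots, 3 leaf and 3 root libraries of control Lachit were used as a second set of plants, and 3 leaf and 2 root libraries of excess-iron Hacha as a second solution. A young rice leaf is a photosynthetic organ, whose cells make large amounts of RNA for a small set of chloroplast proteins encoded in the nucleus. The root holds no green tissue. It takes up water and minerals, loads them into the xylem and is built from cell layers and tips that are still dividing and differentiating. The tables carry gene identifiers alone, with no names or functions for them, so genes are described by level, organ, chromosome and behaviour, and the labelled organs were not checked against named marker genes.

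The 6 control Hacha libraries held between 20796826 and 33386840 estimated reads. Libraries of an organ resembled each other far more than libraries of different organs. Pearson's r of log2 CPM (counts relative to the scaled size of a library) across genes was 0.957 to 0.983 between leaf libraries and 0.976 to 0.986 between root libraries, against 0.493 to 0.519 between a leaf and a root library. The first principal component, which separated leaf from root, held 93.0% of the variance. The second, with 3.94%, set leaf library 1 apart from the other 2 leaf libraries. The spread between replicates, as a biological coefficient of variation, was 26.1% in leaves and 15.2% in roots.

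Leaf RNA was concentrated in fewer genes than root RNA. The values are in TPM, a level corrected for transcript length and set to the same total in every library. The 100 most abundant genes of each library held 32.9, 38.7 and 36.8% of all TPM in leaves, against 19.8, 20.9 and 20.5% in roots (36.1 ± 2.96% and 20.4 ± 0.557%, SD, n = 3 each). The leaf and root libraries did not overlap, and the exact permutation test gave a two-sided p of 0.1, the smallest that 3 against 3 allows. The number of genes that together hold 50% of TPM was 493, 293 and 342 in leaves, against 1068, 1012 and 1000 in roots, again without overlap and with the same exact p of 0.1. The single most abundant gene did not separate the organs, with 2.31, 3.04 and 2.97% of TPM in leaves and 2.21, 2.89 and 2.51% in roots (exact permutation test, p = 0.5). Above 1000 TPM there were 104, 103 and 107 genes in leaves, against 64, 63 and 62 in roots. At the low end the order turned round: 20325, 19192 and 19524 genes reached 1 TPM in leaves, against 22965, 22779 and 22691 in roots. Since TPM has a fixed total, the larger share of the top genes in leaf lowers the TPM of the other leaf genes. How far the counts at 1 TPM rest on that was not tested.

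**Figure D1:**
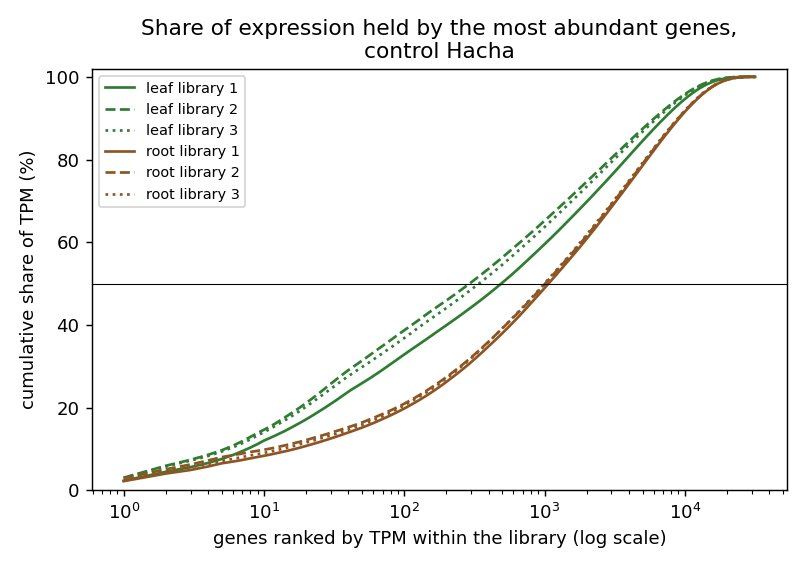
Cumulative share of TPM (%, vertical axis) held by the most abundant genes of each control Hacha library, ranked within the library (log scale), with 3 green leaf lines and 3 brown root lines and a thin line at 50%. The leaf lines cross 50% at 293 to 493 genes, and the root lines at 1000 to 1068 genes.

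The repertoires overlapped in most genes. At least 1 TPM in every library was reached by 18618 genes in leaf and by 21888 in root, and 16886 genes did so in both. Genes at 1 TPM or more in all 3 libraries of an organ and below 1 TPM in each library of the other organ numbered 1199 for leaf and 3589 for root. All these counts rest on the fixed total of TPM as well, so their difference between organs is not one of repertoire alone. The top of the 2 lists was nearly separate. Of the 100 genes with the highest mean TPM in leaf and the 100 likewise in root, 7 were shared. The leaf top 100 had a median of 1870 TPM in leaf and 12.9 TPM in root. They made up 32.7, 38.5 and 36.7% of TPM in the leaf libraries, against 2.07, 1.95 and 2.15% in the root libraries. The root top 100 had a median of 160 TPM in leaf and 1120 TPM in root. Their share was 3.44, 2.93 and 3.2% of TPM in leaves, against 19.6, 20.9 and 20.4% in roots. The abundant genes of the leaf were thus mostly far lower in root, with 87 of the 100 at least 8-fold higher in leaf (11.2% of all tested genes were). Many abundant genes of the root were also well expressed in leaf.

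Most tested genes differed between the organs. Of 25850 genes tested with edgeR's quasi-likelihood test on estimated counts, 19467 (75.3%) passed a Benjamini-Hochberg adjusted p of 0.05. Higher in leaf were 8921 genes (34.5% of those tested) and lower in leaf 10546 (40.8%), so that 45.8% of the calls were on the leaf side. That split rests on the scaling between organs. With the trimmed mean (TMM) scaling used here, the median log2 fold change of all tested genes was -0.12. With library totals alone the median was -0.81 and the calls were 5630 higher and 15153 lower, or 27.1% on the leaf side. Limma on log2(TPM + 1) gave 5526 higher and 15704 lower, or 26.0% on the leaf side, and on log2(TPM + 0.1) 5510 higher and 15643 lower, also 26.0%. In whole organs, fewer cells of a type and less RNA per cell cannot be told apart. Of the tested genes, 20769 (80.3%) had leaf and root libraries that did not overlap, and of the called genes 19398 did so.

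Large differences were common. At least 8-fold higher in leaf, by the fitted fold change, were 2898 genes (11.2% of tested genes), and at least 8-fold lower in leaf 3554 (13.7%). This split moved with the scaling too: library totals gave 2305 higher and 4560 lower, and limma on log2(TPM + 0.1) gave 2091 higher and 4152 lower. At 32-fold or more the counts were 1561 higher and 1838 lower, and at 256-fold or more 480 higher and 388 lower. The median absolute log2 fold change over all tested genes was 1.21. Of the 8-fold genes, 132 on the leaf side had no read in any root library and 398 on the root side had none in any leaf library. A floor of 3 reads over the libraries of the empty organ still put 132 of those 132 and 397 of those 398 at 8-fold or more. A group of 7284 genes (28.2%) was held within 2-fold of equal level, in that the 95% interval of the difference lay inside that range. Of these, 3192 passed the test with a small difference. The group was formed under TMM scaling alone. With library totals the median log2 fold change of all tested genes was -0.81 in place of -0.12, so which genes count as equal rests on the scaling too.

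**Figure D2:**
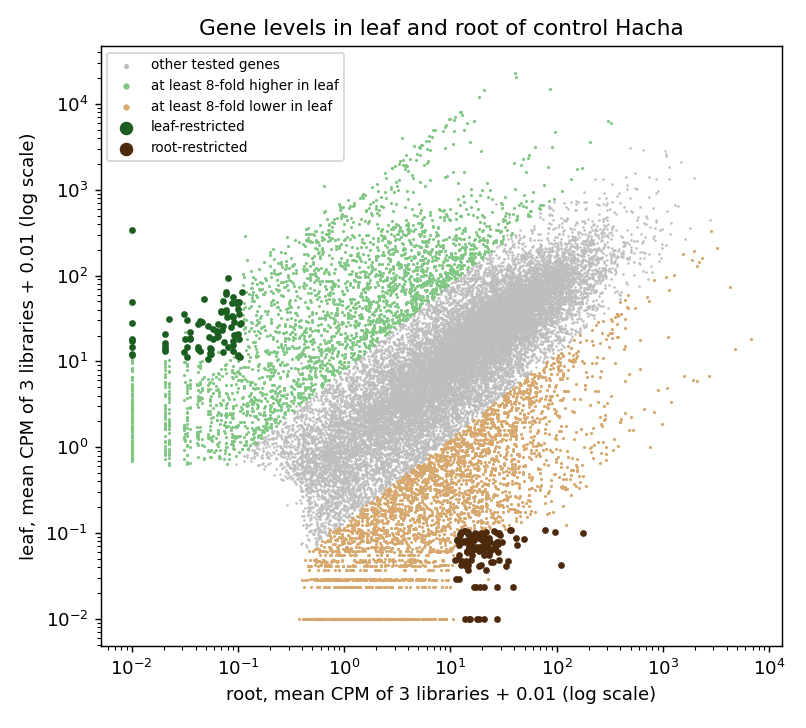
Mean CPM + 0.01 in leaf (vertical, log scale) against root (horizontal, log scale) of the genes tested in control Hacha, 3 libraries per organ, with light colours for genes at least 8-fold different and dark points for genes restricted to an organ. The upper edge of the cloud holds leaf genes far above 1000 CPM with low root levels, and genes at the left and bottom edges had no read in the other organ.

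The gene with the most RNA among the 8-fold leaf genes was OS12G0291100 on chromosome 12, with 3 transcripts in the files. It had 23100, 30400 and 29700 TPM in the leaf libraries, against 53.3, 56.9 and 146 TPM in the root libraries. Every leaf library exceeded every root library by a wide margin, and root library 3 stood above the other 2 root libraries. The log2 fold change of this gene was 9.13 (SE 0.61, adjusted p = 1.19e-05 by edgeR's quasi-likelihood test). Together with it, the 10 most abundant 8-fold leaf genes had mean levels of 7790 to 27700 TPM in leaf and 14.0 to 99.1 TPM in root, and log2 fold changes of 7.41 to 10.16. All 10 separated the organs without overlap.

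The counterpart in root was OS12G0571100, also on chromosome 12, with a single transcript of 546 bases. It had 45.3, 37.6 and 42.6 TPM in leaves, against 22100, 28900 and 25100 TPM in roots. The replicates of each organ lay close together, and the log2 fold change was -8.53 (SE 0.25, adjusted p = 4.95e-07 by the same edgeR test). The 10 most abundant 8-fold root genes averaged 4.84 to 328 TPM in leaf and 2600 to 25400 TPM in root, with log2 fold changes of -9.05 to -3.11. Their lower end in root lay well under the lower end of the leaf set in leaf. The genes of the top lists were picked by their level in the organ, so their counts are a description. Of the root top 100, 40 were at least 8-fold higher in root and 88 were called higher there, and 6 were called higher in leaf. Of the leaf top 100, 87 were at least 8-fold higher in leaf and 96 were called higher, and 1 was called lower. Of all tested genes, 34.5% were called higher in leaf and 40.8% lower. At 8-fold or more these shares were 11.2 and 13.7%.

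The root-side genes were the more numerous and the less abundant. In their own organ, the 8-fold leaf genes had a median of 30.1 TPM and 723 of them reached 100 TPM. The 8-fold root genes had a median of 8.96 TPM in root and 302 reached 100 TPM. Several annotated transcripts were listed for 19.3% of the leaf set, 8.53% of the root set and 19.4% of all tested genes. The longest transcript had a median of 1362.5 bases in the leaf set, 1379 in the root set and 1559 in all tested genes. Genes held within 2-fold of equal level were longer, with a median of 1771.5 bases, and 26.9% of them had several transcripts. Membership in that group needs a narrow interval, which is easier to reach with more reads, and longer transcripts give more reads. How far the rule itself favours long genes was not tested.

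A stricter description took genes at 10 CPM or more in every library of an organ and at a mean of no more than 0.1 CPM in the other. By this rule 84 genes (0.325% of tested genes) were leaf-restricted and 119 (0.46%) root-restricted. They lay on all 12 chromosomes in both sets. No read at all in the other organ was found for 8 of the leaf-restricted and 7 of the root-restricted genes. In their own organ the leaf-restricted genes averaged 4.83 to 364 TPM, with a median of 20.0, and the root-restricted genes 6.17 to 208 TPM, with a median of 21.0. The restricted genes were a small part of each organ's RNA, at 0.245 to 0.285% of TPM in leaf for the leaf set and 0.388 to 0.401% of TPM in root for the root set. The list lengths depend on the thresholds: a further 303 leaf and 358 root genes had a mean of 0.1 to 0.5 CPM in the other organ, and a further 78 and 153 had 5 to 10 CPM in their lowest own library.

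The most abundant leaf-restricted gene, OS10G0533100 on chromosome 10, had 267, 387 and 359 CPM in leaf and no read in any root library. Set against a floor of 3 reads over the root libraries, it was at least 10100-fold higher in leaf. Control Lachit gave the same picture, with 306, 268 and 362 CPM in leaf, no read in root and a level at least 10000-fold higher in leaf. The most abundant root-restricted gene, OS08G0189100 on chromosome 8, had 0.117, 0 and 0.164 CPM in leaf, against 100, 91.1 and 99.8 CPM in root. Its log2 fold change in edgeR's quasi-likelihood test was -10.09, with an SE of 0.4 and an adjusted p of 1.35e-06. In control Lachit it had 0.145, 0.316 and 0 CPM in leaf and 0.779, 0.636 and 0.827 CPM in root, and the interaction test of Hacha minus Lachit gave a log2 difference of -7.89 (SE 1.07, adjusted p = 0.000483 by edgeR). Its root TPM in Lachit was 1.68, 1.29 and 1.58, against 217, 196 and 212 in Hacha.

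**Figure D3:**
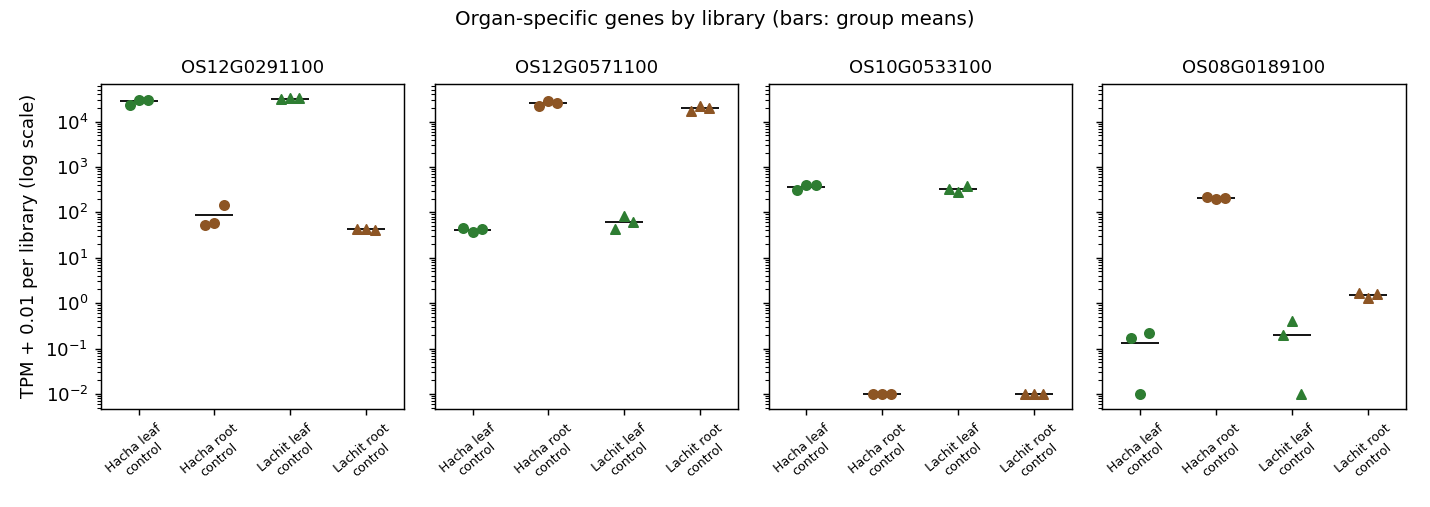
TPM + 0.01 per library (log scale) of the most abundant 8-fold and organ-restricted genes, with green leaf and brown root points, circles for Hacha, triangles for Lachit and bars for group means (n = 3 each). OS08G0189100 has 196 to 217 TPM in Hacha root and 1.29 to 1.68 TPM in Lachit root, while the points of the other 3 genes lie at like heights in both varieties.

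Organ-enriched genes were found on every chromosome, in part in runs of neighbours. Chromosomes and neighbours were read from the identifiers, which number genes along each chromosome. The 8-fold leaf genes made up 9.48 to 12.7% of the tested genes of each chromosome. The 8-fold root genes made up 11.7 to 18.3%, with the highest share on chromosome 11. Runs were counted along all 35679 genes, tested or not, so an untested gene ended a run. Runs of 3 or more consecutive genes all on the same list numbered 81 for leaf, with 267 genes, and 144 for root, with 508 genes. The longest leaf run had 6 genes, on chromosome 4, at a median of 2.12 TPM in leaf and 0.118 TPM in root. The longest root run had 11 genes on chromosome 7, at 0.0324 to 2.82 TPM in leaf and 3.56 to 944 TPM in root. All 11 were at least 8-fold higher in root in Lachit as well, where their median was 280 TPM in root, against 18.7 TPM in Hacha root. Of the whole 8-fold root list of Hacha, 73.6% were at least 8-fold higher in Lachit root, and of all genes tested in Lachit 13.1%. Neighbouring genes of similar sequence can share reads, and the files do not show how far that applied here.

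In genes expressed in both organs, the main transcript rarely changed with the organ. Among 3397 genes with several transcripts and at least 5 TPM in all 6 libraries, 2908 had a main transcript that stayed the same within each organ. In 68 of these genes (2.0% of the 3397) the main transcript of leaf differed from that of root. In these 68, the leaf form held a median of 60.3% of the gene's TPM in leaf and 32.3% in root. In 16 genes its share differed by more than 50 percentage points. Of the 66 that could be measured in Lachit, 27 showed the same change of main transcript and 1 the opposite. This division rests on the program's assignment of reads among transcripts of a gene.

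The control Lachit plants, whose libraries are separate, repeated most of the pattern. In Lachit 9582 of 25909 tested genes (37.0%) were higher in leaf and 10498 (40.5%) lower. Across 24590 genes tested in both varieties, the log2 fold changes of Hacha and Lachit had a Pearson's r of 0.92, a description across genes, which are not independent. Of the 2898 genes at least 8-fold higher in Hacha leaf, 91.1% were called in the same direction in Lachit and 16 in the opposite one. Of the 3554 at least 8-fold lower, 89.6% were called in the same direction and 23 in the opposite one. Leaf-restricted genes of Hacha were called higher in Lachit leaf in 78 of 84 cases, and root-restricted genes called lower there in 113 of 119. Tested in Lachit were 79 and 115 of them. The strict thresholds, by which these genes were chosen in Hacha, were met in Lachit by 49 of the 84 and 41 of the 119. Over the whole 8-fold lists of Hacha, 155 leaf genes and 108 root genes met them in Lachit.

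**Figure D4:**
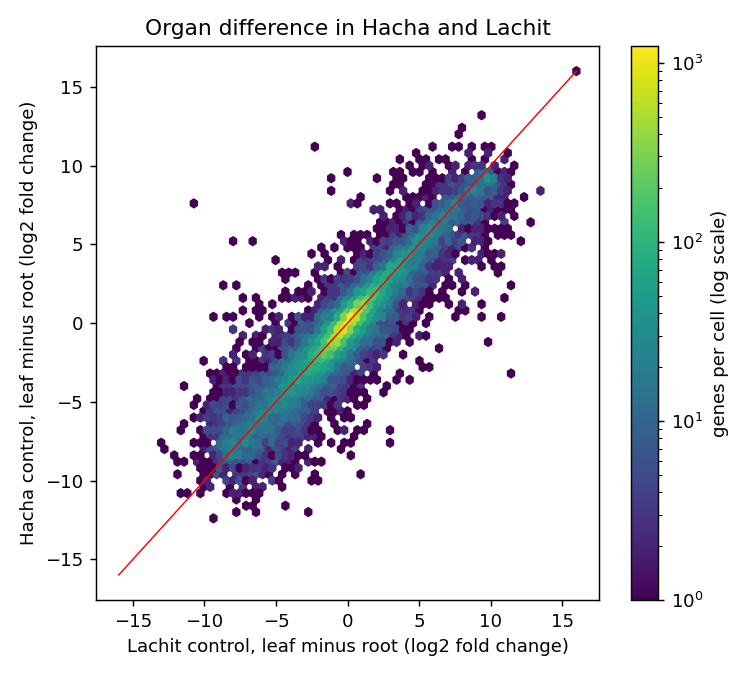
Log2 fold change of leaf over root in control Hacha (vertical) against control Lachit (horizontal) for genes tested in both, as counts of genes per hexagonal cell on a log colour scale, with a red line of equality. Most genes lie along the line (Pearson's r = 0.92), with scattered genes far from it.

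The difference between varieties was tested directly as an interaction over the 12 control libraries. Of 27563 genes tested, 5599 (20.3%) had an organ difference that differed between Hacha and Lachit, with 2340 (8.49%) higher in Hacha, on the log2 scale of leaf over root, and 3259 (11.8%) lower. The count depends on the fit: 2904 genes were called in a fit of all 23 libraries, and a test against a minimum log2 difference of 1 called 471 higher and 811 lower. For OS03G0830300 on chromosome 3, the leaf libraries of Hacha had 23.1, 33.9 and 29.1 CPM, while those of Lachit had no read. Its roots were at 0, 0.0638 and 0.0369 CPM in Hacha and 0.0287, 0 and 0.0343 CPM in Lachit. Among these 12 libraries, those of Hacha leaf alone exceeded 0.1 CPM. OS01G0124700 on chromosome 1 turned round between varieties. It had 3.36, 13.7 and 18.3 CPM in Hacha leaf and no read in Hacha root, but 2.18, 2.13 and 1.77 CPM in Lachit leaf and 15.3, 9.96 and 10.6 CPM in Lachit root. In the opposite sense, OS01G0945600, also on chromosome 1, had 3.08, 2.01 and 1.87 CPM in Hacha leaf and 19.9, 14.5 and 27.1 CPM in Hacha root. In Lachit it had 19.2, 9.39 and 5.57 CPM in leaf and no read in root. The adjusted p for these genes in edgeR's interaction test was 0.00379 for OS03G0830300, 0.00014 for OS01G0124700 and 5.21e-05 for OS01G0945600.

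The contrast between the organs was smaller in excess-iron Hacha by the fitted fold changes. Their median absolute log2 value was 0.94 over the genes tested there, against 1.21 over the genes tested in control Hacha. In excess-iron Hacha, 2046 of 24503 tested genes (8.35%) were at least 8-fold higher in leaf and 1916 (7.82%) at least 8-fold lower. These are called genes from a fit with 2 root libraries. Fewer libraries can lower the number of calls, so these counts alone do not measure the contrast. To keep the choice of genes apart from the control Hacha libraries, lists chosen in control Lachit were followed into Hacha. These lists were still chosen under the control solution. The 3025 genes at least 8-fold higher in Lachit leaf (11.7% of genes tested in Lachit) held 51.7, 59.4 and 57.3% of TPM in control Hacha leaves, against 1.75, 1.57 and 1.72% in control Hacha roots. In excess-iron Hacha they held 12.5, 16.5 and 17.1% in leaves, against 4.36 and 3.87% in roots. Every control leaf library lay far above every excess-iron leaf library. The 3404 genes at least 8-fold lower in Lachit leaf (13.1%) held 0.779, 0.388 and 0.445% of TPM in control Hacha leaves, against 21.9, 22.7 and 22.2% in control roots. Under excess iron they held 7.48, 6.02 and 4.21% in leaves, against 19.4 and 19.9% in roots.

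Gene by gene, the interaction over the 11 Hacha libraries called 12862 of 27680 genes (46.5%). The log2 ratio of leaf over root was higher in control than in excess iron for 6252 of them (22.6% of tested genes) and lower for 6610 (23.9%). Which side held more genes was not stable. With limma on log2(TPM + 1) the split was 5846 higher and 10475 lower, but without a filter on low counts it was 6860 higher and 5740 lower. Leaving out any of the 6 leaf libraries also gave more higher than lower, up to 7270 against 5646 without excess-iron leaf replicate 2. A test against a minimum log2 difference of 1 called 3266 higher and 3457 lower. Of the 2874 tested genes of the Lachit leaf list, 1623 (56.5%) had a larger leaf excess in control Hacha than in excess-iron Hacha and 117 (4.07%) a smaller one. For the Lachit root list, 1377 of 3260 (42.2%) had a larger root excess in control and 120 (3.68%) a smaller one. Both shares stand above the 22.6 and 23.9% of all genes that moved in those directions. The lists were chosen for large differences under the control solution, so their genes had more room to shrink than to grow. No list chosen under excess iron was set beside them. The same limit holds for the medians that follow. The median log2 fold change of the leaf list was 4.97 in control and 2.79 in excess iron over 2454 genes tested in both. For the root list the medians were -4.66 and -2.72 over 2148 genes. With genes without a read in an organ set at their bound, the control median of the root list was -4.60 and the other 3 medians were as given.

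**Figure D5:**
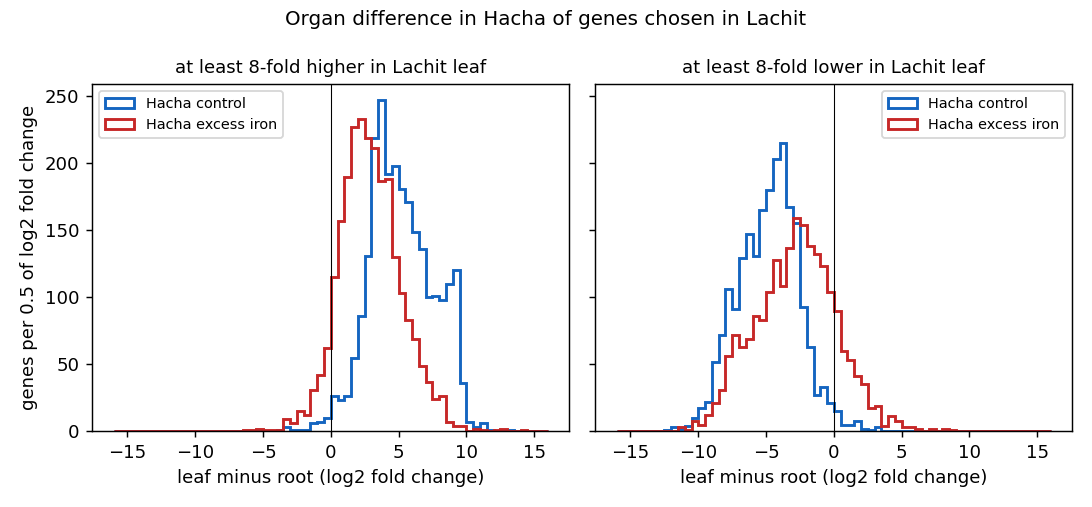
Distribution of the log2 fold change of leaf over root in Hacha for genes at least 8-fold higher (left panel) or lower (right panel) in Lachit control leaf, in control (blue) and excess-iron (red) Hacha, as genes per 0.5 of log2. The control distributions lie farther from 0, with medians of 4.97 and -4.66, against 2.79 and -2.72 in excess iron.

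The named genes did not move alike. The leaf gene OS12G0291100 had 23100, 30400 and 29700 TPM in control Hacha leaves but 133, 484 and 188 TPM in excess-iron leaves, while its root libraries overlapped, with 53.3, 56.9 and 146 TPM in control and 107 and 56.0 TPM in excess iron. Its log2 ratio of leaf over root was 6.98 higher in control (SE 0.86, adjusted p = 0.00021 in edgeR's interaction test). OS10G0533100 had 306, 395 and 392 TPM in control leaves but 6.47, 29.1 and 11.2 TPM in excess-iron leaves, with no read in any root library of Hacha, so that its ratio could not be compared. The root gene OS12G0571100 had 22100, 28900 and 25100 TPM in control roots and 27100 and 22900 TPM in excess-iron roots. Its leaf level averaged 41.8 ± 3.91 TPM in control and 130 ± 34.1 TPM in excess iron (SD, n = 3 each), and its log2 ratio differed by -1.37 (SE 0.34, adjusted p = 0.00895 in edgeR's interaction test). Root-restricted OS08G0189100 had 217, 196 and 212 TPM in control roots and 1560 and 1130 TPM in excess-iron roots, without overlap. Its log2 ratio did not pass the interaction test (difference -1.09, SE 1.26, adjusted p = 0.515 by edgeR), with 0.124 ± 0.111 TPM in control leaves and 1.8 ± 1.9 TPM in excess-iron leaves (SD, n = 3 each). In excess-iron Hacha, 1 of the 84 leaf-restricted and 2 of the 119 root-restricted genes met the strict thresholds. They had been chosen by those thresholds in control Hacha. Of the 2 lists, 60 and 82 genes were tested in excess-iron Hacha, and 54 and 74 were called in the same direction, with 0 in the opposite one. Of all 24503 genes tested there, 23.6% were higher in leaf and 23.4% lower.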

How the data were processed

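RNA came from 100 mg of tissue (RNeasy plant mini kit), and libraries from Illumina's TruSeq RNA kit v2, per the labels' protocols. Since strand is not kept by that kit, a gene and an antisense partner cannot be told apart. The submitters' processing notes name kallisto, bcl2fastq and the build IRGSP-1.0, and give no role, settings or kallisto version. The authors' deposited tables give, for each of 42346 transcripts and each library, an estimated count, a TPM value and an effective length, per the file headers. Between 37.8 and 41.4% of the transcript counts were not whole, since reads that fit several transcripts were shared among them, and near-identical genes carry an uncertainty that the tables do not show.

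Estimated counts were summed over the transcripts of each of 35679 genes and rounded, and TPM values were summed likewise. Groups came from the titles. The labels do not say whether the libraries of a group came from separate plants, so p-values measure only how these samples vary, and that variation may be technical. No pair of libraries of a group agreed within sampling noise (chi-square per gene 7.69 to 72.7). Excess-iron Hacha roots have 2 libraries here and no further replicate was analysed.

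Differences were tested with edgeR 4.0.16 (quasi-likelihood, robust, TMM scaling, filterByExpr), with Benjamini-Hochberg adjustment over all genes tested and a threshold of 0.05. The 6 control Hacha libraries were fitted alone, the 12 control libraries for the variety interaction and the 11 Hacha libraries for the solution interaction. CPM are scaled by TMM within each fit, and so CPM of different fits are set side by side only as levels. Folds against an organ without a read use 3 reads over its libraries as the floor. The floors cover counting error only. The SEs were computed as the absolute fitted log2 fold change divided by the square root of edgeR's F statistic. The 95% intervals of fold changes come from these SEs and include the spread between libraries. Both are approximate, and they are unreliable where a group had no reads. DESeq2 1.42.0 and limma 3.58.1 (on log2(TPM + 1) and log2(TPM + 0.1)) served as alternatives, with R 4.3.3 and scipy 1.17.1.

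Genes were named by rule: the most abundant 8-fold and restricted gene of each organ, and for each interaction the largest called differences in genes whose highest group reached 10 CPM, with at most 2 per direction because the identifiers could not be tied to names (1 of them matched the gene table used). For that reason no list of named pathways or markers was tested. The members and lists were chosen with earlier results of these data known.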

Additional observations from a re-analysis of the deposited data

Results flagged for a closer look

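The organ difference itself differed between Hacha and Lachit for 5599 genes in edgeR's interaction test (20.3% of those tested; 9301 had an unadjusted p under 0.05) and between control and excess iron within Hacha for 12862 genes (46.5%; 14804 unadjusted). The fitted log2 differences below depend on a small prior count wherever a group had few or no reads, and they are not bounds.

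Among genes with at least 10 CPM in their highest group, the largest differences between varieties, Hacha minus Lachit, were -14.34 (SE 1.1) for OS01G0945600, -14.21 (SE 4.5) for OS12G0247700, 13.79 (SE 1.26) for OS01G0124700 and 11.99 (SE 2.12) for OS03G0830300. The call of OS12G0247700 was marginal (adjusted p = 0.0498 by edgeR) and was lost in 12 of its 21 alternatives. Over all 21, the adjusted p ranged from 7.21e-06 to 0.54. This gene had 2 reads in all 3 control Hacha leaf libraries and 10 in the roots. In control Lachit its leaf libraries had 41.4, 227 and 16.9 CPM, and its roots held 1 read in all.

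Between solutions, control minus excess iron in Hacha, the largest differences were -14.42 (SE 1.93) for OS12G0555100, -13.44 (SE 2.96) for OS10G0515900, 16.55 (SE 0.56) for OS04G0578600 and 12.51 (SE 1.29) for OS07G0142100. OS12G0555100 turned round. It had 0.109, 0.0755 and 0.0511 CPM in control leaf and 5.88, 5.58 and 5.64 CPM in control root, but 75.2, 60.5 and 2.83 CPM in excess-iron leaf and 0.123 and 0.162 CPM in excess-iron root. OS10G0515900 had 1 read in the control leaf libraries and 3 in the control root libraries, but 40.4, 42.6 and 14.5 CPM in excess-iron leaf and no read in excess-iron root. OS04G0578600 had 106, 82.6 and 104 CPM in control leaf but no read in any excess-iron leaf library. Its roots had 0.0597, 0.123 and 0.106 CPM in control and 0.49 and 0.538 CPM in excess iron. OS07G0142100 had 8470, 9250 and 11200 TPM in control Hacha leaf, but 1.07, 1.51 and 13.7 TPM in excess-iron leaf. Its root TPM was 10.3, 10.2 and 21.5 in control and 47.9 and 21.3 in excess iron. In control Lachit leaf the same gene had 1110, 3620 and 283 TPM, with no overlap between the Hacha and Lachit leaf libraries.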

How the results depend on the processing

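No named gene changed direction under the alternatives run, and more genes were lower than higher in leaf in each fit of the organ comparison. The solution interaction, with 6252 genes higher and 6610 lower, turned to more higher than lower without a filter (6860 against 5740), without any control leaf library (6283 against 5018 to 7106 against 6481), without any excess-iron leaf library (7094 against 5757 to 7485 against 6130) and without excess-iron root replicate 2 (5092 against 5032); the cause was not tested. With library totals in place of TMM, 5630 genes were higher in leaf, 43 leaf-restricted and 198 root-restricted. With a minimum log2 fold change of 1 in the test, 5208 were higher and 6565 lower. With limma, 5526 (pseudocount 1) and 5510 (0.1) were higher; the splits were 5526 against 15704 and 5510 against 15643. On log2(TPM + 1), which understates the fold of low genes, 1432 were at least 8-fold higher and 2003 lower. Relaxed thresholds gave 387 leaf-restricted and 477 root-restricted genes (up to 0.5 CPM in the other organ), or 444 and 940 (from 1 CPM in the own organ). The variety interaction called 2904 genes in a fit of all 23 libraries. For both interactions, library totals, length offsets, limma and the minimum difference were added after seeing the data. Against a minimum log2 difference of 1, the variety interaction called 1282 genes (471 higher, 811 lower) and the solution interaction 6723 (3266 and 3457). Leaving out each library in turn gave 8180 to 9819 genes higher in leaf, 9755 to 10895 lower, 2932 to 3050 at least 8-fold higher, 3556 to 3935 at least 8-fold lower, 79 to 116 leaf-restricted, 109 to 143 root-restricted, 4083 to 7008 for the variety interaction and 9807 to 13615 for the solution interaction. Leaving out an excess-iron root library leaves a lone sample, assumed to vary like the other groups. Of 228 alternatives over the named genes, 215 kept the call, including all 64 for the 4 organ genes. OS12G0247700 lost its call in 12 of its alternatives, with 0.54 as its highest adjusted p by edgeR, without Hacha root control replicate 3, and OS10G0515900 lost its call (adjusted p = 0.0506) without that same library. The named genes were picked in the main fits of these same libraries for a high level or a large difference. Their kept calls therefore say little about other genes. No paired analysis was possible because the numbers in the titles run over libraries and are not shared between groups. Depth limits statements on restricted genes: a mean of 0.1 CPM is a few reads over 3 libraries.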

Other observations

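Leaf library 1 stood apart in a direction that touches the leaf genes. Of the 2898 genes at least 8-fold higher in leaf, 63.5% were lower in this library than in both other leaf libraries, against 38.0% of all tested genes. Of the 3554 genes at least 8-fold lower in leaf, 39.1% were higher in it than in both others and 21.1% lower than in both, against 39.0 and 38.0% of all tested genes. These root genes held 0.565% of TPM in leaf library 1, against 0.345 and 0.427% in the other 2 leaf libraries. Without this library, 3050 genes were at least 8-fold higher in leaf and 3935 at least 8-fold lower, against 2898 and 3554 with it. A rise was not particular to this library. Leaving out any other single library gave 2932 to 3031 higher and 3556 to 3668 lower. The labels name no batch.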
